A study of Mus musculus with 2 samples.

Results

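Lactate handling was followed through 5 genes: Ldha and Ldhb, which encode the A and B subunits of lactate dehydrogenase, Slc16a1 and Slc16a3, which encode the monocarboxylate transporters MCT1 and MCT4, and Bsg, which encodes basigin. The members were the 5 matrix features carrying these symbols, of 32285 genes in all, and all 5 were found once in each of 2 libraries. The data were single-cell RNA counts from subcutaneous mouse tumours, with 1 library from mice on a control diet and 1 from mice on a diet free of serine and glycine. The sources used here name neither the mouse strain, age and sex nor the tumour line and the number of mice in a library. The titles carry only CT and SG, taken here for the control diet and the -SG diet that the design text mentions. In every pair of values below, the control library comes first. After filtering, 13588 and 19107 cells were analysed, with a median of 11310.5 and 7305 unique molecular identifiers (UMIs, tags that each mark 1 captured RNA molecule) per cell. With 1 library per diet there was no replicate and no test. Every ratio between diets compares 2 libraries, and every 95% interval covers counting error only.

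Lactate dehydrogenase interconverts pyruvate and lactate. The A subunit is the form that predominates in glycolytic tissue and in many tumours, and the B subunit predominates in tissues that burn lactate. Both transporters carry lactate together with a proton: MCT1 has the higher affinity and serves uptake as well as release, whereas MCT4 is the form associated with lactate export by glycolytic cells. Basigin, an immunoglobulin-family membrane protein, is the chaperone that brings both transporters to the cell surface. Ldha and Slc16a3 are well-known targets of hypoxia-inducible factors.

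The starts of these genes are shown because the levels are compared below between hypoxic and other tumour cells, and the core letters bound by hypoxia-inducible factors can be looked for in them. On GRCm38, Ldha (ENSMUSG00000063229) lies at chr7:46841475-46855627 on the plus strand, Ldhb (ENSMUSG00000030246) at chr6:142490249-142507957 on the minus strand, and Slc16a1 (ENSMUSG00000032902) at chr3:104638668-104658462 on the plus strand. Slc16a3 (ENSMUSG00000025161) lies at chr11:120948480-120960868 and Bsg (ENSMUSG00000023175) at chr10:79704491-79711969, both on the plus strand. Of the 5, only Slc16a1 overlaps annotated genes on its own strand (2, Gm43581 and Gm43585), so its UMIs could be shared with them. RefSeq promoters of 300 bases (250 before to 50 after a start, build GRCm38.p6) were matched for 4 of the 5 genes. They are printed 5′ to 3′ in the direction of the gene, with capitals marking ACGTG or GCGTG on either strand (CACGT or CACGC when read on the printed strand); CACGTG, the E-box, contains ACGTG on both strands and so counts as 2 overlapping matches.
Ldha, chr7:46845554-46845853: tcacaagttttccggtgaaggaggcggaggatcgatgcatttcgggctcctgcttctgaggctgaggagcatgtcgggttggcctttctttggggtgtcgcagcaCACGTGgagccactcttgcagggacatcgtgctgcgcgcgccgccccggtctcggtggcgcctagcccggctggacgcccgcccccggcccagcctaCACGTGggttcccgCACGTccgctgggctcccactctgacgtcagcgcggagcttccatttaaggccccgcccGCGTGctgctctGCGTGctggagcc
Slc16a1, chr3:104638414-104638713: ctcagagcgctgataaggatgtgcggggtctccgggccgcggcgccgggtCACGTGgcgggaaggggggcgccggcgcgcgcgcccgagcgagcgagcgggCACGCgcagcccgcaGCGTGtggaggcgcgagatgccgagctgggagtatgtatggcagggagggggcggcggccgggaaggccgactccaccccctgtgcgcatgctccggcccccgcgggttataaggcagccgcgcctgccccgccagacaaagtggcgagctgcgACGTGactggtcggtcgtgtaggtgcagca
Slc16a3, chr11:120948817-120949116: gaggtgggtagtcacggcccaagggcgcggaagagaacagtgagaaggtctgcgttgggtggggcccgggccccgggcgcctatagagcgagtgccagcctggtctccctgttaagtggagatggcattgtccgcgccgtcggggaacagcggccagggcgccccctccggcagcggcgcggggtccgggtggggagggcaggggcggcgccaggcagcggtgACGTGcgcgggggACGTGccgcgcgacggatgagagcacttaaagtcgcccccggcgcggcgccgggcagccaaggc
Ldhb, chr6:142507908-142508207: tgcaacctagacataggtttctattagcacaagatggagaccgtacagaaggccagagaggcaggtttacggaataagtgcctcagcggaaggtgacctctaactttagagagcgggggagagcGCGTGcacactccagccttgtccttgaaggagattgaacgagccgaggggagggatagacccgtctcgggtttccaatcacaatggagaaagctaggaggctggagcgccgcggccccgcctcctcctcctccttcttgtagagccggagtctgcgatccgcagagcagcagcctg

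This Ldha start held 7 matches (5 of ACGTG and 2 of GCGTG), among them 2 E-boxes. Of all 32851 promoters of that length, 0.301% held as many. A second annotated Ldha start, at chr7:46846832-46847131, held 2. Slc16a1 held 5 matches, as many as or more than were held by all but 1.66% of promoters, Slc16a3 held 2 and Ldhb held 1. ACGTG occurred in 19.6% of all promoters, GCGTG in 32.4%, either in 43.8% and the E-box in 7.15%. The matches describe letters in these windows and were not set against any measurement of binding. The number of matches did not order the genes as the response to the hypoxia score below did, since Slc16a1 held more matches than Slc16a3.

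Cells were assigned to classes by marker genes, none of them a member. Presumed tumour cells carried Hmga2, Rhox5, Krt20 or Krt18 and no leukocyte or stromal gate, and numbered 10463 and 13088. Hmga2 stood at 2051 and 1995 CPM in them (counts of a gene summed over a class and scaled to a common total) and Ptprc, the pan-leukocyte gene CD45, at 0.734 and 2.43. The tumour name rests on these 4 genes, since the tumour line is not given. Ptprc is itself a leukocyte gene that the tumour gate limits. The largest leukocyte classes were macrophages (957 and 1119 cells), CD8 T cells (275 and 796) and monocytes (381 and 386), and the smallest classes used for levels were B or plasma cells in the control library (16) and plasmacytoid dendritic cells (30 and 56). Between 76.8% (other T cells) and 100% of the cells of each class fell in a cluster of the same class when cells were clustered without the 5 genes. Each cluster was named by the commonest class among its gated cells, and T cells were split by the same marker genes. The agreement is therefore partly built in. After filtering, 79 cell barcodes occurred in both libraries. Leaving those cells out moved no tumour ratio of a member beyond its counting interval.

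Ldha, which makes the subunit that favours lactate production, was the most abundant of the 4 enzyme and transporter genes in tumour cells, and it was expressed in every class. Because each UMI is 1 tag from the 3′ end of a molecule, no length scaling was applied; how efficiently each gene is captured was not tested. In presumed tumour cells Ldha stood at 808 (control library) and 1101 (serine/glycine-free library). Monocytes were close to the tumour cells of the control library, at 828 and 871, and macrophages stood at 646 and 773. CD8 T cells, at 642 and 677, and regulatory T cells, at 692 and 756, were not separated from macrophages by the spread between the 2 libraries, nor were NK cells, fibroblasts, endothelial cells and neutrophils. The lowest levels were those of plasmacytoid dendritic cells, which held 205 and 216, and of B or plasma cells, which held 188 and 173, below the 509 and 417 of the remaining T cells. The place of B or plasma cells depended on how the class was drawn: with classes taken from clusters they held 359.5 and 461, against 573 and 444 in the remaining T cells, while plasmacytoid dendritic cells held 221 and 209.

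Ldhb was almost absent from tumour cells and was found in some leukocyte classes and in fibroblasts. Presumed tumour cells held 13 and 21 Ldhb UMIs in all, or 0.0883 and 0.154 CPM, and Ldha made up 99.989% (99.981 to 99.994%) and 99.986% (99.979 to 99.991%) of their lactate dehydrogenase UMIs. Plasmacytoid dendritic cells were the exception among the leukocytes, with Ldhb at 182 and 134 CPM (16 and 18 UMIs). In that class Ldha made up only 52.9% (35.1 to 70.2%) and 61.7% (46.4 to 75.5%). Regulatory T cells followed at 42.1 and 38.8 CPM on 7 and 8 UMIs. Monocytes held 19.9 and 29.5 on 25 and 24 UMIs and macrophages held 15.6 and 26.7 on 80 and 113 UMIs. Fibroblasts were alike, at 14 and 27.9 on 7 and 16 UMIs. NK cells, conventional dendritic cells, neutrophils and B or plasma cells had no Ldhb UMI in either library. The limit that a count of 0 allows was taken as the level at which 3 UMIs would be expected. It was 9.22 and 11.5 CPM in NK cells and 5.66 and 5.87 in conventional dendritic cells.

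**Figure D1:**
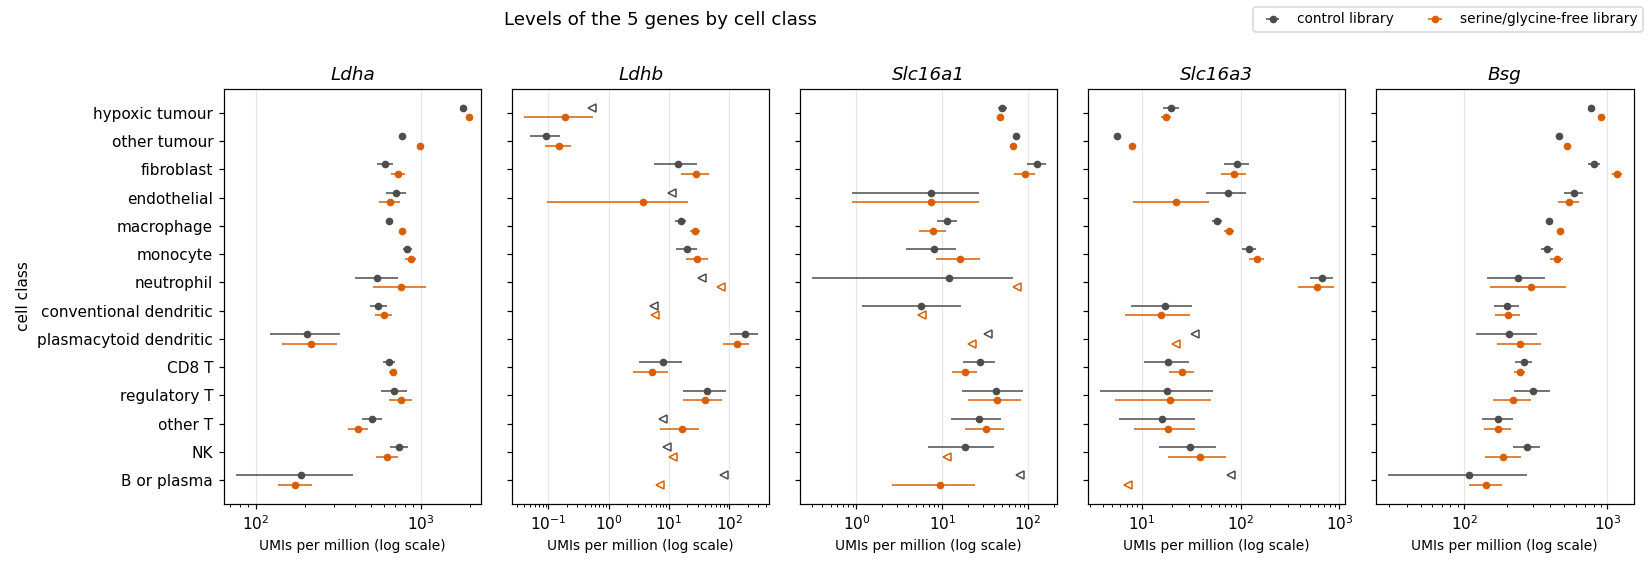
Level of each gene in CPM (horizontal, log scale) by cell class, with the control library in grey and the serine/glycine-free library in orange. Points are 1 library each, bars are 95% Poisson counting intervals, and open triangles are the limit that a count of 0 allows (3 expected UMIs). Ldha is spread over every class, Ldhb is near 0 in tumour cells, and Slc16a3 peaks in neutrophils at 664 and 589.

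The 2 transporters were highest in different classes, with fibroblasts high in both. Slc16a1, the MCT1 gene, was highest in fibroblasts, at 126 and 92.3 CPM, and in presumed tumour cells, at 72.5 and 64. Regulatory T cells held 42.1 and 43.6 on 7 and 9 UMIs, and CD8 T cells held 27.5 and 18.4. Myeloid cells were low: macrophages held 11.5 and 7.8 and monocytes 7.97 and 16. Slc16a3, the MCT4 gene, was highest in neutrophils. They held 664 and 589 CPM on 56 and 24 UMIs, far above the 121 and 145 of monocytes, which in turn were above the 57.7 and 75.9 of macrophages in both libraries. Fibroblasts held 91.9 and 85.4, and presumed tumour cells held only 6.11 and 9.0. The neutrophils were shallow cells, and when classes were taken from clusters instead of gates their Slc16a3 level fell to 113 in the serine/glycine-free library while it stayed at 566 in the control library. No Slc16a3 UMI was seen in plasmacytoid dendritic cells or in B or plasma cells, which by the same limit allows up to 34.1 and 22.3 CPM in the former.

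Taken as a share of the UMIs of both transporters, Slc16a3 made up 7.77% (7.29 to 8.28%) and 12.3% (11.7 to 13%) in presumed tumour cells. In macrophages it made up 83.4% (79.1 to 87.1%) and 90.7% (87.2 to 93.5%) and in monocytes 93.8% (88.9 to 97%) and 90.1% (83.6 to 94.6%). Fibroblasts lay between, at 42.2% (32.8 to 52%) and 48% (38 to 58.2%). The intervals of tumour cells, fibroblasts and macrophages did not overlap in either library, so most transporter UMIs were Slc16a1 in tumour cells and Slc16a3 in macrophages. T cell shares rested on few UMIs: CD8 T cells stood at 40% (24.9 to 56.7%) and 57.8% (46.5 to 68.6%), with intervals that overlapped those of fibroblasts. Tumour RNA was also found outside tumour cells. From 20 tumour genes that no gate uses, leukocyte classes with at least 50 cells in both libraries carried 1.46% (conventional dendritic cells, control library) to 4.24% (neutrophils, control library) of the tumour level. Fibroblasts stood at 12.7% and 15.5% by these genes, but at 2.29% and 3.95% by the tumour gate genes. The 20 genes were picked against leukocytes only, so the fibroblast value can include RNA of the fibroblasts themselves and may be too high. With the share from the 20 genes taken off, 117 of 120 levels of the 5 genes outside tumour cells stayed within their counting intervals. The other 3 were in fibroblasts: Ldha went from 607 and 726 to 504 and 556 CPM, and Bsg from 1167 to 1079 under the serine/glycine-free diet. Slc16a1 in macrophages, at 11.5 and 7.8, went to 10.3 and 6.27. With the share taken from the tumour gate genes instead, 119 of 120 levels stayed within their intervals, and macrophage Ldha under the serine/glycine-free diet went from 773 to 742.

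**Figure D2:**
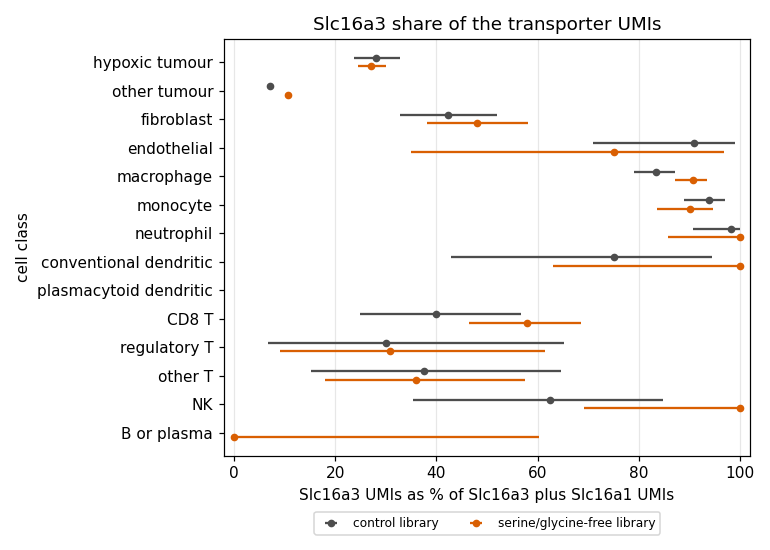
Slc16a3 UMIs as a percentage of Slc16a3 plus Slc16a1 UMIs (horizontal) by cell class, control library in grey and serine/glycine-free library in orange, with 95% Clopper-Pearson intervals; classes with no UMI of either gene have no point. Other tumour cells lie at 7.04% and 10.6%, hypoxic tumour cells at 28.1% and 27.1%, and macrophages at 83.4% and 90.7%.

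Bsg, the shared chaperone, was present in every class, with less spread between classes than either transporter. Fibroblasts stood highest, at 803 and 1167 CPM, followed by endothelial cells at 581 and 537 and presumed tumour cells at 468 and 566. Macrophages held 392 and 466 and monocytes 378 and 443, which the spread between libraries did not separate. Lymphocytes were lower, from 301 and 218 in regulatory T cells to 107 and 143 in B or plasma cells. With classes taken from clusters B or plasma cells stood at 166 and 307 and regulatory T cells at 293 and 201, so B or plasma cells were then the higher of the pair under the serine/glycine-free diet. Embigin (Emb), the other chaperone of this family, had the opposite distribution to Bsg between tumour cells and myeloid cells: it stood at 0.808 and 1.76 CPM in tumour cells and 531 and 605 in monocytes. Slc16a7, which encodes the high-affinity transporter MCT2, was found mainly in macrophages, at 32.1 and 27.2 CPM against 0.0204 and 0.0366 in tumour cells. Hcar1, the cell-surface lactate receptor, had no UMI in tumour cells.

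Across 20 class-by-library sums (10 classes with at least 50 cells in each library), the genes whose log2(CPM + 1) followed Ldha most closely among 10988 genes were Pgk1, Tpi1 and Gapdh, with Pearson correlations of 0.87, 0.83 and 0.77. All 3 encode enzymes of glycolysis. Slc16a3 was followed by Svil, Rnf149 and Mir22hg (0.93 each), which like it were highest in neutrophils. Bsg was followed by C1rb (0.95), Cd276 (0.91) and C1qtnf1 (0.91), all highest in fibroblasts. Slc16a1 was followed by Lamc1 (0.83), Hibch (0.80) and Ptgfrn (0.80), and Ldhb by Plcl1 (0.87), Ypel2 (0.79) and Cept1 (0.77). Plasmacytoid dendritic cells, the class highest in Ldhb, had 30 control cells and were not among these sums. In NK cells, conventional dendritic cells and neutrophils, which were, Ldhb had no UMI. The 2 sums of a class share its gate and each library shares its depth, so these values describe likeness over these sums and carry no p.

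Hypoxic tumour cells, gated without any member or glycolysis gene, had more Ldha, Slc16a3 and Bsg and less Slc16a1 than other tumour cells in both libraries. The hypoxia score of a cell was the summed UMIs of 21 hypoxia genes, such as Ndrg1, Bnip3 and Car9, as a share of all its UMIs. A presumed tumour cell counted as hypoxic when this score put it in the top 10% over both libraries. These were 516 control cells (4.93%, 4.52 to 5.36%) and 1840 cells of the serine/glycine-free library (14.1%, 13.5 to 14.7%). With each cell thinned to 2000 UMIs the shares were 5.48% and 13.6%, leaving out 16 and 43 shallower cells. The class is a range of a score, with 248 and 550 cells within 10% of its limit.

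Ldha stood at 1809 CPM in hypoxic and 767 in other tumour cells of the control library, a log2 ratio of 1.24 (95% counting interval 1.21 to 1.27). In the serine/glycine-free library it stood at 1956 and 987, a log2 ratio of 0.99 (0.97 to 1.0). Ldha was thus about 2.36 and 1.98 times as high in the hypoxic cells. Slc16a3 had the largest ratio of the 5 genes in both libraries. It stood at 5.56 CPM in other and 19.7 in hypoxic control cells, 1.82 (1.52 to 2.11) on the log2 scale, and at 7.88 and 17.5 under the serine/glycine-free diet, 1.15 (0.95 to 1.34). Bsg stood at 763 against 456 and at 907 against 520.3, with log2 ratios of 0.74 (0.70 to 0.79) and 0.80 (0.78 to 0.83). Slc16a1 was lower in hypoxic cells, at 50.3 against 73.4 and 46.9 against 66.2, with log2 ratios of -0.55 (-0.72 to -0.38) and -0.50 (-0.61 to -0.39).

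Past a 1.25-fold difference, and among the 4 members with at least 100 UMIs, 3 were higher and 1 was lower in both libraries. Of all genes tested, 15.3% were higher and 36% lower for the control cells, with 12% higher and 34.8% lower for the serine/glycine-free cells. The median gene was lower in hypoxic cells, by a log2 ratio of -0.14 and -0.16. Relative to that median, Slc16a1 stood at -0.40 and -0.34, and with so many genes lower in these cells, 1 lower member of 4 is near the background. Ldhb could not be compared, with 0 and 3 UMIs in the hypoxic cells.

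With the 2 transporters in opposite directions, Slc16a3 made up 28.1% (23.8 to 32.8%) and 27.1% (24.4 to 29.9%) of their UMIs in hypoxic tumour cells and 7.04% (6.58 to 7.53%) and 10.6% (10.0 to 11.3%) in other tumour cells. Slc16a1 remained the larger of the 2 even in the hypoxic cells.

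The hypoxic cells differed from the other tumour cells in more than the score. Cells with cycling genes made up 21.7% and 31.8% of them, against 43.5% and 51.3%, their median depth was 10439 and 7704 UMIs against 13132 and 9544, and Hmga2 stood at 1340 and 1475 CPM against 2080 and 2064. Among cells without cycling genes the log2 ratios were 1.12 and 0.94 for Ldha and 1.67 and 1.1 for Slc16a3. Of 6 leukocyte genes looked at (Ptprc, Emb, S100a8, S100a9, C1qa and Lyz2), 2 were higher in hypoxic than in other control tumour cells and 1 was higher under the serine/glycine-free diet. The 2 higher ones of the control cells were S100a8, at 1.22 CPM on 7 UMIs against 0.636, and C1qa, and the other was Lyz2, at 42.2 against 40.9. S100a9, the partner of S100a8 in the neutrophil protein calprotectin, stood at 0.522 against 1.45 and 2.0 against 2.37, and in neutrophils at 45691 and 38957. Emb stood at 0.696 CPM in hypoxic and 0.813 in other control cells, with 1.75 and 1.76 under the serine/glycine-free diet. C1qa, a macrophage gene, stood at 8.0 against 6.69 and 10.8 against 12.3. The median cell had no pan-leukocyte, macrophage or neutrophil UMI in either group. The tumour gate itself limits these panels, which include Ptprc, S100a8, S100a9 and C1qa, so low values in both groups are partly built in.

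Along 10 bins of the score, Ldha rose at each of the 9 steps in both libraries, from 600.4 to 1809 CPM for the control diet and from 677 to 1956 for the serine/glycine-free diet. Slc16a3 rose at 9 and 8 of 9 steps and was 6.68 and 4.83 times as high in the top bin as in the bottom bin. Bsg changed late, from 469 and 527 CPM in bin 7 to 763 and 907 in bin 10. Slc16a1 was nearly level over the lower bins and then fell to 50.3 and 46.9. The difference between hypoxic and other cells was therefore not confined to the cells past the limit for Ldha and Slc16a3, which rose over the lower bins too. The share of cells with cycling genes fell along the same bins, from 59.3% to 21.7% and from 60.4% to 31.8%, and its part in the trend was not tested bin by bin.

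**Figure D3:**
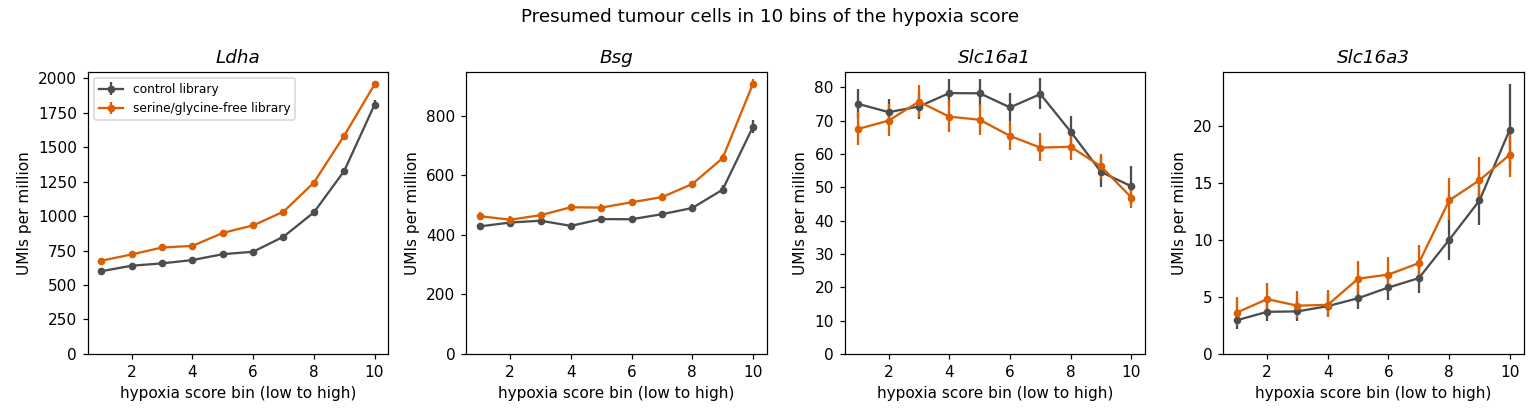
Levels in presumed tumour cells in CPM (vertical, from 0) over 10 bins of the hypoxia score from low to high (horizontal), control library in grey and serine/glycine-free library in orange; bars are 95% Poisson counting intervals. Ldha climbs over the whole range and Slc16a1 drops over the last bins, and the serine/glycine-free library lies above the control library in 10 of 10 bins for Ldha and Bsg.

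Between the libraries, tumour cells of the serine/glycine-free diet carried more Ldha, Slc16a3 and Bsg and slightly less Slc16a1, and all 4 differences shrank when the mix of hypoxic cells was held the same. Ldha stood at 808 and 1101 CPM, a log2 ratio of serine/glycine-free over control of 0.45 (0.44 to 0.46). Slc16a3 stood at 6.11 and 9.0, 0.56 (0.43 to 0.68). Bsg stood at 468 and 566, 0.27 (0.26 to 0.29), and Slc16a1 at 72.5 and 64, -0.18 (-0.22 to -0.14). Past 1.25-fold, 2 of the 4 tested members (Ldha and Slc16a3) were higher and none was lower, where 12.3% of 13453 genes were higher and 8.9% lower, with a median log2 ratio of 0.03. Ldhb, at 13 and 21 UMIs, was under the minimum. Ptprc in the same cells stood at 0.734 and 2.43 CPM. Of the 2 classes highest in Slc16a3, monocytes held Ptprc at 560.1 and 887 beside Slc16a3 at 121 and 145. Neutrophils held Ptprc at 1233 and 1718 beside Slc16a3 at 664 and 589. The part of leukocyte RNA in the tumour ratios was not tested.

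The serine/glycine-free library held more hypoxic cells, so the same ratios were taken with its cells weighted to the control library's mix over the 10 bins, an alternative chosen after seeing the data. The log2 ratios were then 0.24 for Ldha, 0.23 for Slc16a3, 0.15 for Bsg and -0.12 for Slc16a1, and no member passed 1.25-fold. Within hypoxic cells the ratio was 0.11 (0.08 to 0.14) for Ldha and -0.17 (-0.49 to 0.16) for Slc16a3, an interval that holds 0. Within other tumour cells it was 0.36 (0.35 to 0.38) for Ldha and 0.50 (0.36 to 0.64) for Slc16a3. Bsg was about as far apart in hypoxic cells, at 0.25 (0.20 to 0.30), as in others, at 0.19 (0.17 to 0.20). The smaller Ldha ratio at a matched mix is a measurement on 2 libraries; whether diet or the particular tumours set the number of hypoxic cells cannot be told apart.

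Clusters of presumed tumour cells, made without the 5 genes, gave the same directions for Ldha and Bsg. Over 10 clusters with at least 50 cells in each library, Ldha was higher in the serine/glycine-free library in 10 of 10, with log2 ratios from 0.17 to 0.52, and Bsg in 10 of 10, from 0.14 to 0.51. Slc16a1 was lower in 9 of 10 and Slc16a3 higher in 9 of 10. The clusters come from the same 2 libraries and are not replicates. The cluster led by Cryab, Ndrg1 and Bnip3, in which 70.3% of cells were hypoxic, had the highest Ldha in both libraries, 1591 and 1882 CPM, and the lowest was 589 and 662. The cluster led by Gadd45b, Cxcl1 and Gadd45g, 61.5% hypoxic, held 1235 and 1696. High Ldha was not confined to clusters rich in hypoxic cells. The cluster led by Ercc1, Tmem179b and Sf3b4, only 4.82% hypoxic, held 1153 and 1517.

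Macrophages also held more Ldha, Slc16a3 and Bsg in the serine/glycine-free library. Their Ldha stood at 646 and 773 CPM, a log2 ratio of 0.26 (0.19 to 0.33), Slc16a3 at 0.40 (0.16 to 0.63) and Bsg at 0.25 (0.16 to 0.34). Ldhb was also higher in them, at 0.78 (0.35 to 1.21) on 80 and 113 UMIs. Past 1.25-fold, Ldhb and Slc16a3 were higher of the 4 tested, where 8.4% of all genes were higher and 12.1% lower. The top 10% of macrophages by the hypoxia score made up 7.42% (5.84 to 9.27%) of macrophages in the control library (71 cells) and 12.2% (10.4 to 14.3%) in the other (137 cells). Within the remaining macrophages, a split made after seeing the data, the ratios between libraries were smaller for 3 genes, at 0.16 (0.08 to 0.23) for Ldha, 0.26 (-0.00323 to 0.53) for Slc16a3, whose interval then holds 0, and 0.15 (0.06 to 0.25) for Bsg. Ldhb stood at 0.90 (0.46 to 1.35) in them. Within the top 10% they were 0.23 (0.05 to 0.41) for Ldha, 0.16 (-0.35 to 0.68) for Slc16a3 and 0.30 (0.05 to 0.55) for Bsg. Fibroblasts held more Ldha, at 0.26 (0.04 to 0.48), and more Bsg, at 0.54 (0.36 to 0.72), on 62 and 91 cells. Their Ldha levels moved when the tumour RNA share was taken off, as given above. In CD8 T cells the ratio of Ldha was 0.08 (-0.07 to 0.22), in monocytes 0.07 (-0.07 to 0.21) and in conventional dendritic cells 0.10 (-0.13 to 0.34), and each interval holds 0. Regulatory T cells stood at 0.13 (-0.23 to 0.49) for Ldha. The Ldha ratio was negative in NK cells, at -0.24 (-0.54 to 0.05), and in the remaining T cells, at -0.29 (-0.58 to 0.006). These 3 intervals also hold 0. NK cells ran the other way for Bsg, at -0.54 (-1.08 to -0.02) on 89 and 49 UMIs.

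**Figure D4:**
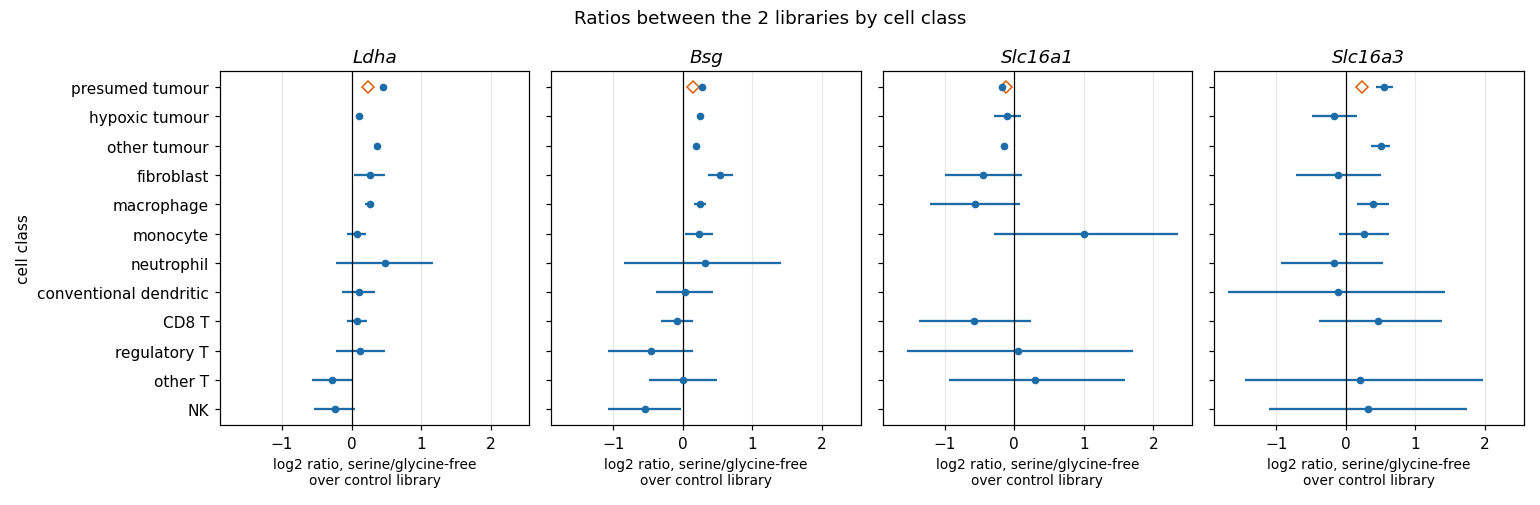
Log2 ratio of serine/glycine-free over control library (horizontal) for 4 genes by cell class, with 95% counting intervals; the open diamonds are the tumour ratio at the control library's mix of hypoxia scores, and classes with under 5 UMIs in either library have no point. Ldha in presumed tumour cells falls from 0.45 to 0.24 at the matched mix, and the interval of Slc16a3 in hypoxic cells spans 0.

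The neighbouring steps of the pathway followed Ldha in the tumour cells. Of 17 tested glycolysis genes, 9 were at least 1.25-fold higher in the serine/glycine-free library and 0 lower, beside 12.3% and 8.9% of all genes, with a median log2 ratio of 0.37 against 0.03 over all genes. Pgk1, which encodes phosphoglycerate kinase, stood at 705 and 1189 CPM (0.75), and Eno2, an enolase, at 18.2 and 30.2 (0.73). The counts between libraries, here and for the lists below, keep each library's own mix of hypoxic cells. The part of that mix in them was not tested. Aldoa, also of this list, stood at 455.5 and 528.7 CPM in other tumour cells and at 1389.9 and 1428.7 in hypoxic cells. Eno2 stood at 15.4 and 20.8 in other tumour cells and at 87.5 and 100.8 in hypoxic cells. Between hypoxic and other cells, 16 of 17 glycolysis genes were at least 1.25-fold higher in the control library and 15 of 17 in the other. Of all genes, 15.3% and 12% were. In both libraries 0 were lower past the fold, beside 36% and 34.8% of all genes. The medians were 1.28 and 1.13, against -0.14 and -0.16 over all genes. Slc2a1, the glucose transporter GLUT1, and Eno2 had the largest ratios of the list in both libraries. Slc2a1 stood at 28.2 and 149 CPM in other and hypoxic control cells and, under the serine/glycine-free diet, 34.2 and 160.1. The list was chosen with earlier results of these data known and is not independent of them.

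Few of the genes that send pyruvate to the mitochondrion or hold it back passed the fold. Of 11 tested pyruvate genes, 2 were higher between the libraries and 1 lower, near the 12.3% and 8.9% of all genes. Between hypoxic and other cells, 2 of 10 were higher and 3 lower in the control library, beside 15.3% and 36% of all genes, with 2 higher and 1 lower under the serine/glycine-free diet, beside 12% and 34.8%. Pdk1, the kinase that inhibits pyruvate dehydrogenase, stood at 14.3 and 23.9 CPM (0.74) and was higher in hypoxic cells by 2.14 and 1.78. Pdk2, a second kinase of that enzyme and the lower gene between the libraries, had 136 UMIs and a ratio of -0.45 with an interval that holds 0. Among 7 tested regulators, Egln1, which encodes the oxygen-sensing prolyl hydroxylase PHD2, had the largest ratio, 0.69 between libraries and 1.91 and 1.63 between hypoxic and other cells. Hif1a, whose product is controlled mainly at the protein level, stood at 57.5 and 71.9 CPM (0.32), and Myc at 44.9 and 54.5 (0.28). Of the other lactate-handling genes, only 3 of 11 reached 100 UMIs, and Emb, at 1.12, was the 1 past the fold, in cells whose Ptprc also differed as given above.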

How the data were processed

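Per the file headers and the submitters' processing notes, the authors deposited raw UMI counts per gene and barcode made with Cell Ranger, given as version 7.0.1 in the headers and 2.2.2 in the notes, with the mm10 mouse build in the notes. The sources used here give neither the annotation release nor the handling of intronic reads. The labels' protocols describe 10x 3′ libraries but also human cardiac septal tissue, which disagrees with the mouse tumour fields. Cells with at least 500 UMIs, 300 genes and at most 20% mitochondrial UMIs were kept (14159 and 20312), and Scrublet doublets (571 and 1205) were removed per library in scanpy 1.11.5. Analysed cells carried 161608837 and 156660396 UMIs. Counts were summed per class and library and scaled to CPM; the 2 Aldoa rows were summed. Intervals are exact Poisson, Clopper-Pearson or conditional, at 95%. A gene was counted as higher or lower at 1.25-fold with at least 100 UMIs over both sums. No test was possible with 1 library per diet. The calculation was tested on simulated counts. Named genes were the 5 members, the 2 largest ratios of each pathway list, 5 genes named whatever their value, and the 3 genes most like each member; values of other genes, the cluster summary and the comparisons under other observations were chosen after their values could be seen. Leukocyte, class and tumour gates used marker lists, with classes also taken from 23 Leiden clusters. Members, lists and gates were chosen with earlier results of these data known. Promoters came from RefSeq and loci from GENCODE, both on GRCm38.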

Additional observations from a re-analysis of the deposited data

Results flagged for a closer look

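Bsg went opposite ways in NK cells and in presumed tumour cells. In NK cells its level was 274 and 188 CPM on 69 and 100 cells, a log2 ratio of -0.54 (-1.08 to -0.02), while every tumour value above was positive, at 0.27 over all presumed tumour cells. Each group is 1 library per diet, so the difference was not tested. The T cell classes were not higher in Bsg either. Regulatory T cells stood at -0.46 (-1.08 to 0.15), under the UMI minimum, CD8 T cells at -0.09 (-0.32 to 0.15) and the remaining T cells at 172 and 172 CPM. Median depth of the NK cells was 4151 and 1960.5 UMIs. The NK ratio ranged from -0.80 to -0.21 over the alternatives, nearest 0 with classes taken from clusters.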

How the results depend on the processing

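No paired analysis was possible because each diet had 1 library, and for the same reason no replicate could be left out. Over 332 results, 2467 of 2684 alternative values stayed within the counting interval of the reported value or, for a count, within 1.5 times it, 215 did not and 2 changed sign. With the serine/glycine-free library weighted to the control library's hypoxia mix, an alternative chosen after seeing the data, the number of members at least 1.25-fold higher in presumed tumour cells went from 2 to 0. The log2 ratio between libraries in these cells ranged over 0.24 to 0.46 for Ldha, 0.23 to 0.71 for Slc16a3, -0.25 to -0.12 for Slc16a1 and 0.15 to 0.28 for Bsg. Between hypoxic and other cells it ranged over 1.0 to 1.38 and 0.92 to 1.15 for Ldha and 1.55 to 2.12 and 0.96 to 1.31 for Slc16a3. The changes of sign were both in Ldhb, which was under the UMI minimum: its ratio in the serine/glycine-free library was 0.33, but -0.25 with the top 5% as hypoxic and -0.0549 without cycling cells. Small list counts moved: between libraries, regulators higher went from 2 to between 1 and 3 and pyruvate genes higher from 2 to between 1 and 2, and lower pyruvate genes in hypoxic control cells from 3 to between 1 and 3. The cause of these shifts was not tested. Cluster boundaries, and the doublet call of 1 cell, also shifted with the numerical settings of the software, which were then fixed. Depth limits small classes most, and neutrophils and plasmacytoid dendritic cells rest on few UMIs per gene. A count of 0 allows levels above those of tumour cells for Ldhb in every other class without an Ldhb UMI. For Slc16a3 it does so in plasmacytoid dendritic cells and in B or plasma cells of the control library. For Slc16a1 it does so in neutrophils of the serine/glycine-free library and in B or plasma cells of the control library. For Slc16a1 in plasmacytoid dendritic cells it allows up to 34.1 and 22.3 CPM, below the 72.5 and 64 of presumed tumour cells.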

Other observations

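Macrophages high in the same hypoxia score held more Ldha, Slc16a3 and Bsg than other macrophages. These comparisons were added after seeing the data, 4 in all, and are given as values. The top 10% of macrophages over both libraries held Slc16a3 at 173 CPM against 50.5 in other macrophages of the control library and at 193 against 60.6 in the serine/glycine-free library. The log2 ratios were 1.78 (1.32 to 2.22) and 1.67 (1.31 to 2.03). Ldha stood at 1.12 (0.96 to 1.27) and 1.19 (1.07 to 1.31) and Bsg at 0.88 (0.66 to 1.08) and 1.02 (0.86 to 1.18). Slc16a1, lower in hypoxic tumour cells, stood at 0.23 (-1.7 to 1.67) and 0.09 (-1.88 to 1.6) on 4 UMIs in each library's hypoxic macrophages, intervals that hold 0. Ldhb stood at 0.39 (-1.11 to 1.58) and -1.21 (-2.69 to -0.04) on 6 UMIs each. In monocytes taken the same way, Ldha stood at 0.74 (0.43 to 1.04) and 1.1 (0.83 to 1.36), Bsg at 0.89 (0.43 to 1.32) and 1.31 (0.95 to 1.66) and Slc16a3 at 0.71 (-0.20 to 1.5) and 0.52 (-0.27 to 1.24), intervals that hold 0 for Slc16a3.

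Ldha went opposite ways with cycling genes in CD8 T cells and in tumour cells. In CD8 T cells with cycling genes Ldha stood at 826 CPM against 503 in those without, in the control library, and at 737 against 638 in the other, log2 ratios of 0.71 (0.47 to 0.96) and 0.21 (0.05 to 0.37). In tumour cells the log2 ratios of Ldha were -0.24 (-0.26 to -0.23) and -0.23 (-0.24 to -0.21), and those of Slc16a1 0.09 (0.04 to 0.15) and 0.18 (0.12 to 0.24). The difference between the 2 cell classes was not tested. Among tumour cells the share with cycling genes fell along the hypoxia score while Ldha rose, as given above. The part of that overlap in the tumour ratios was not tested.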
